A study of Mus musculus with 9 samples.

Results

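The genes described here encode ATP-dependent chromatin remodelers, namely subunits of the SWI/SNF complexes and the ATPases of the CHD, ISWI, INO80 and SWR1 families, with Hells and Atrx beside them. The 37 genes were taken by name from a list of these complexes, out of 18423 genes in the table, and expression values played no part in the rule. They were measured in poly(A) RNA from glands scraped off the mouse stomach corpus after loosening in EDTA, in 9 libraries of 3 groups. Arid1a_Het glands came from Atp4bCre; Rosa26NICD; Arid1aflox/+ mice, Ctrl glands from Atp4bCre; Rosa26NICD mice and WT glands from wild type mice, with 3 libraries each. Arid1a_Het and Ctrl glands therefore share the Cre driven by Atp4b, which encodes part of the proton pump in acid-secreting parietal cells, and the allele for the Notch intracellular domain (NICD), and differ in the loxP-flanked copy of Arid1a. In tumour-bearing stomachs the glands were taken from the tumour region and in normal stomachs from the matching place, and the labels give no age. No label says whether replicate libraries are separate mice, so the p-values cover variation among these libraries only, some of which may be technical.

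Remodelers use ATP to slide, eject or exchange nucleosomes. SWI/SNF complexes are built on 1 ATPase, Smarca4 (BRG1) or Smarca2 (BRM), and most other positions can also be filled by one of several related proteins, so that a cell's mix of paralogues sets which complexes it can build. Arid1a, the gene deleted here, encodes the large DNA-binding subunit that marks the canonical BAF form, while Pbrm1, Brd7 and Phf10 mark PBAF and Brd9 the non-canonical form. Chd3 and Chd4 drive the NuRD deacetylase complex, Smarca1 and Smarca5 are the spacing ATPases of ISWI complexes, and Ino80, Srcap and Ep400 serve histone variant exchange.

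The targeted gene was read first. Arid1a (chr4:133679008-133756769, minus strand, GRCm38) had 8.94, 5.90 and 6.96 FPKM (a read count scaled for gene length and library size) in Arid1a_Het libraries 1 to 3, against 14.9, 13.3 and 16.2 FPKM in Ctrl and 13.5, 7.79 and 12.0 FPKM in WT. All Arid1a_Het libraries lay below all Ctrl libraries, while WT 2 lay among the Arid1a_Het values. The log2 fold change of FPKM + 1 was -0.95 (SE 0.22) for Arid1a_Het against Ctrl with an adjusted p of 0.299 from limma over all genes, and an exact two-sided permutation test gave 0.1, the smallest p that 3 against 3 libraries allow. Against WT the log2 fold change of Arid1a_Het was -0.53 (SE 0.22, adjusted p 0.245, exact permutation p 0.2), and it passed in 1 of 22 alternatives, median-ratio scaling with the replicate number as a block (adjusted p 0.0498). For Ctrl against WT it was 0.42 (SE 0.22, adjusted p 0.204, exact permutation p 0.2), and 0.17 after median-ratio scaling or 0.20 without WT 2. The gene-level value sums the deleted and the kept parts of the gene.

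The libraries held 22651385 to 29478481 reads in the table. Of the 37 genes, 35 reached 1 FPKM in at least 3 libraries and were tested, and Dpf1 and Dpf3, neuronal and muscle paralogues of Dpf2, had 1 to 9 reads per library and were not. Parietal, pit and mucous neck markers were all detected in every library. Of 10 exocrine pancreas markers, 8 were higher in Arid1a_Het 3 and Ctrl 1 than in every other library, such as Cpa1 with 77.5 and 148 FPKM against 0 in the 7 others. The other two were Prss1, at 0 to 0.283 FPKM throughout, and Clps, which was lowest in Arid1a_Het 3 (691 FPKM) and highest in WT 2 (12647 FPKM) and made the summed list highest in WT 2 as well. The chief cell pepsinogen Pgc made up 17.9% of the summed FPKM of Arid1a_Het 2 and 16.5% of that of WT 2, against 1.49% to 8.38% elsewhere. In these same libraries the remodelers were low: Arid1a_Het 2 was the lowest of its group for 30 of 35 genes (61.9% of all tested genes were lowest there) and WT 2 for 32 of 35 (69.0% of all). Median-ratio scaling, which sets the libraries to a common typical gene, brought these counts to 18 and 26, against 36.9% and 40.6% of all tested genes. Leukocyte markers summed to 479 to 963 FPKM in Arid1a_Het and 478 to 794 FPKM in Ctrl, against 60.4 to 134 FPKM in WT. The mast cell proteases Mcpt1 and Mcpt2 made up most of the sums in Arid1a_Het and Ctrl, with 264 and 335 of 621 FPKM in Arid1a_Het 1. S100a8 and S100a9 also lay above WT in both groups. The other markers overlapped between Arid1a_Het and WT, such as Ptprc, at 0.278 FPKM in Arid1a_Het 1 against 0.296 to 0.461 FPKM in WT. The part of leukocytes in the results was not tested.

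**Figure D1:**
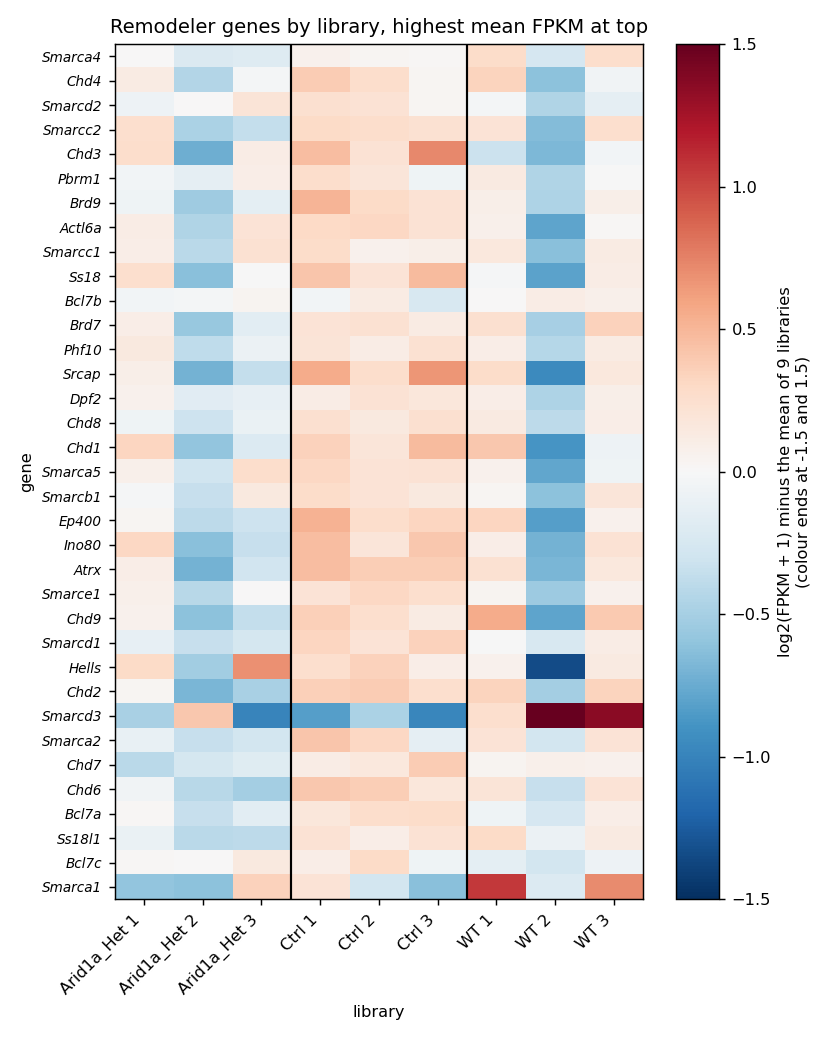
Heat map of the 35 tested remodeler genes (rows, highest mean FPKM at the top) in the 9 libraries (columns); colour is log2(FPKM + 1) minus the gene's mean over all 9 libraries. The columns Arid1a_Het 2 and WT 2 are blue for 32 of 35 genes each, the Ctrl columns are mostly red, and Smarcd3 is blue in all 3 Ctrl columns.

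Per length, the remodelers spanned a wide range of levels. Smarca4 (39.5 to 57.7 FPKM over all libraries), Chd4 (27.9 to 56.5 FPKM), Smarcd2 (19.8 to 32.5 FPKM) and Smarcc2 (16.0 to 31.6 FPKM) were the 4 genes with a mean above 20 FPKM. Another 18 genes averaged 5 to 20 FPKM, 12 averaged 1 to 5 FPKM, and Smarca1, Dpf1 and Dpf3 averaged under 1 FPKM. Within the paralogue groups of SWI/SNF the highest mean levels were those of Smarca4, Smarcc2, Smarcd2, Ss18 (5.74 to 15.4 FPKM) and Bcl7b (8.51 to 11.2 FPKM), and the actin-like subunit Actl6a had 6.52 to 15.2 FPKM.

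Setting Ctrl against WT addresses the Cre and NICD alleles. Of the 35 genes, 1 was lower in Ctrl and 0 were higher at an adjusted p under 0.05 (limma), where 10.1% of all 11209 genes passed in either direction, and 3 remodelers had an unadjusted p under 0.05, beside 32.1% of all genes. With the replicate number as a block, 2 were higher (Chd3 and Ss18) and 1 lower, beside 22.1% of all genes called. In that fit 13 had an unadjusted p under 0.05, beside 40.6%. No label pairs the libraries by number. The numbers were read as pairs from these data alone, because same-numbered Ctrl and WT libraries deviated together, though weakly (correlations 0.207, 0.336 and 0.138). The pairing was thus taken from the same values that the block was then used to test. The block also covered the Arid1a_Het libraries, which did not deviate together with the others of their number in all pairs. The gene that passed without the block was Smarcd3, one of 3 alternative subunits of the SWI/SNF core. The median log2 fold change over the 35 was 0.31, against 0.24 over all genes tested, and 4 of 35 were negative. Without WT 2 the medians were 0.12 and 0.11, with 8 negative. By family, the fold changes were 0.15 to 0.81 for the 8 CHD genes, 0.48 to 0.67 for the INO80 and SWR1 ATPases and -0.12 to 0.61 for the ATPase-arm subunits, and that of Smarca1 was -0.76. After median-ratio scaling, which shifts the median of all genes to 0.01, the remodelers' median was 0.10. Every Ctrl library lay above every WT library for 14 of the 35 (40.0%), beside 33.5% of all genes, and below for 1, beside 10.2%. After scaling these were 6 and 3 genes, beside 20.6% and 21.7% of all genes.

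Smarcd1, Smarcd2 and Smarcd3 encode interchangeable subunits that link SWI/SNF to transcription factors, and Smarcd3 is best known from heart and muscle development in the mouse. Smarcd3 (chr5:24590818-24624411, minus strand, GRCm38) had 1.16, 1.75 and 0.947 FPKM in Ctrl libraries 1 to 3, against 3.57, 12.0 and 8.75 FPKM in WT. The highest Ctrl library was below the lowest WT library. Smarcd3 fell in Ctrl by 1.88 on the log2 scale of FPKM + 1 (SE 0.43, adjusted p 0.0274), and the ratio of mean FPKM was 0.159. Arid1a_Het libraries had 1.72, 4.05 and 0.934 FPKM, which overlap both other groups, with a log2 fold change of -1.48 against WT (SE 0.43, adjusted p 0.106). That p was 0.0331 without Arid1a_Het 2 and 0.0458 without WT 1. The call in Ctrl against WT rests on few libraries: the adjusted p was 0.0787 without Ctrl 1, 0.0594 without Ctrl 2, 0.108 without Ctrl 3, 0.0922 without WT 2 and 0.0811 without WT 3. It was 0.0623 without both libraries that hold pancreas reads, 0.0641 with no filter on low values, and 0.00757 with the replicate number as a block.

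Smarcd3 was set beside the markers of parietal cells. The 8 genes listed as parietal markers, all detected in every library, summed to 1467, 5777 and 582 FPKM in Arid1a_Het. They summed to 411, 1446 and 908 FPKM in Ctrl, and to 2975, 14830.0 and 6963 FPKM in WT. One of them, Gif, had its 4 highest libraries in the order of the chief cell gene Pgc and not of Atp4a. Gif made up 178 of the 411 FPKM in Ctrl 1 and 191 of the 582 FPKM in Arid1a_Het 3. The sum may thus hold chief cell RNA, which was not tested. WT 2, WT 3, Arid1a_Het 2 and WT 1 were the 4 highest libraries in that order both for this sum and for Smarcd3. Below these the orders differed, with Arid1a_Het 3 lowest for Smarcd3 and Ctrl 1 lowest for the sum. The part of parietal cells in the difference of Smarcd3 was not tested. In bulk RNA, fewer cells of a type and less RNA per cell cannot be told apart. Smarcd3 also overlaps Chpf2 on the other strand. The kit keeps strand, but whether the counting used it is not given, so some Smarcd3 reads could belong to Chpf2, whose level ran from 7.61 to 11.4 FPKM over all libraries with Ctrl (8.89 to 9.22 FPKM) inside the range of WT (7.61 to 11.4 FPKM). The same limit holds for Smarcc1 with Dhx30, Actl6a with Mrpl47, Pbrm1 with Gnl3 and Smim4, and Phf10 with 1600012H06Rik, and Chd2 overlaps 1810026B05Rik on its own strand.

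**Figure D2:**
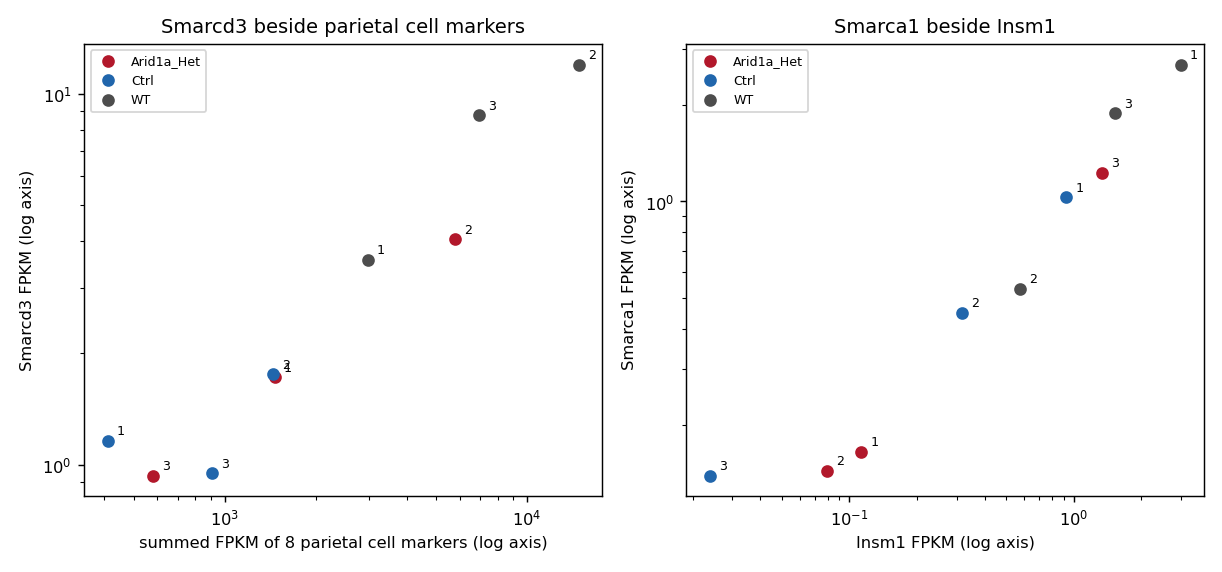
Left, Smarcd3 FPKM against the summed FPKM of 8 genes listed as parietal cell markers, Gif included. Right, Smarca1 FPKM against Insm1 FPKM. Both have log axes, with 1 point per library numbered by replicate and coloured by group. WT 2 and WT 3 are at the upper right on the left, and all 9 libraries have the same order on both axes on the right.

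The stretches upstream of the 3 Smarcd genes are shown because these paralogues fill the same place in the complex and only Smarcd3 passed the test. Each is the 250 bases before the RefSeq start on the gene's strand (GRCm38.p6), 5′ to 3′, with CG dinucleotides in capitals. They lie at chr5:24602003-24602252 (minus) for Smarcd3, chr15:99702037-99702286 (plus) for Smarcd1 and chr11:106267633-106267882 (minus) for Smarcd2. The windows of Smarcd3 and Smarcd2 lie inside the GENCODE gene spans, and that of Smarcd1 lies partly inside, from position 99702129 on. These spans include starts farther upstream, and the gene-level values do not say which start was used.

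Smarcd3: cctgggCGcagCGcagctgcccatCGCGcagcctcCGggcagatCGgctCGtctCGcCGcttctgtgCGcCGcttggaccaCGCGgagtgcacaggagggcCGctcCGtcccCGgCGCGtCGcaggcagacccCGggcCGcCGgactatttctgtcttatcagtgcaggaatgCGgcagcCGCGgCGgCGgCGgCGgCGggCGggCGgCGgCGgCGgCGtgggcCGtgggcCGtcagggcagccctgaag

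Smarcd1: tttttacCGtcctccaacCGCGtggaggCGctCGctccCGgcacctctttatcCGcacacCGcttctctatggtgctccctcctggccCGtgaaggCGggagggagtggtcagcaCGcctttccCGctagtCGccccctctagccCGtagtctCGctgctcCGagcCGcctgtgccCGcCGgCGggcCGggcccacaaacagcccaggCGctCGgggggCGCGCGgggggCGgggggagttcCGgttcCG

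Smarcd2: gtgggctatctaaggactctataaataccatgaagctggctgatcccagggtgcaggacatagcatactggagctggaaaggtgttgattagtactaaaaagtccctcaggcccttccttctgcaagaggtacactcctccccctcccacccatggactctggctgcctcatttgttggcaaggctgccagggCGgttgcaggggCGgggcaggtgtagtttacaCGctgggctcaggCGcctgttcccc

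Smarcd3 holds 38 CG dinucleotides at 76.0% G and C, Smarcd1 29 at 71.2% and Smarcd2, the most abundant of them, 4 at 56.4%. Over the 30 remodeler genes found in the RefSeq table the median was 23.5 CG at 67.4% G and C, against 6.0 CG at 52.4% over all 32851 windows of this length. The letters GTGGGAA, searched on both strands as the core of the site of Rbpj, the DNA-binding partner of NICD, were found in 1 of the 30 windows, that of Chd9, and in 5.42% of all windows. The letters AAGGTCA, the core of the site of estrogen-related receptors such as the parietal factor Esrrg, were in 0 of the 30 and in 4.08% of all. None of the 3 Smarcd windows above holds either run of letters, which says only that these letters are not in these windows.

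Because they are read in the same library, paralogue ratios do not depend on how the libraries are scaled. Smarcd3 made up 5.47%, 11.7% and 2.61% of the summed FPKM of the 3 Smarcd genes in the Arid1a_Het libraries, 2.97%, 4.51% and 2.74% in the Ctrl libraries and 10.4%, 34.0% and 22.8% in the WT libraries. Ctrl lay wholly below WT, and Arid1a_Het overlapped both. Smarcd1, by contrast, had 3.80, 3.08 and 3.34 FPKM in Arid1a_Het, 5.51, 4.97 and 5.57 FPKM in Ctrl, and 4.17, 3.41 and 4.63 FPKM in WT. Arid1a_Het lay below all Ctrl libraries and Ctrl above all WT libraries, with log2 fold changes of -0.53 (SE 0.15, adjusted p 0.383) for Arid1a_Het against Ctrl and 0.33 (SE 0.15, adjusted p 0.170) for Ctrl against WT. After median-ratio scaling the fold changes were -0.35 and 0.11, Arid1a_Het was still below Ctrl (3.22 to 3.73 against 4.35 to 5.14), and Ctrl overlapped WT (4.03 to 4.47). Smarcd2 had 26.0, 27.6 and 31.5 FPKM in Arid1a_Het, 32.5, 32.1 and 28.1 FPKM in Ctrl, and 26.8, 19.8 and 25.1 FPKM in WT. Its log2 fold change for Ctrl against WT was 0.37 (SE 0.15, adjusted p 0.137), but 0.11 after median-ratio scaling (adjusted p 0.508) and 0.24 without WT 2, and Arid1a_Het overlapped both groups as deposited. The ratio of Smarcd2 to Smarcd1 was 6.84, 8.94 and 9.42 in the Arid1a_Het libraries, 5.90, 6.47 and 5.04 in the Ctrl libraries and 6.43, 5.82 and 5.42 in the WT libraries, so that Arid1a_Het lay above every library of both other groups. These ratios were compared by their ranges and were not tested.

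**Figure D3:**
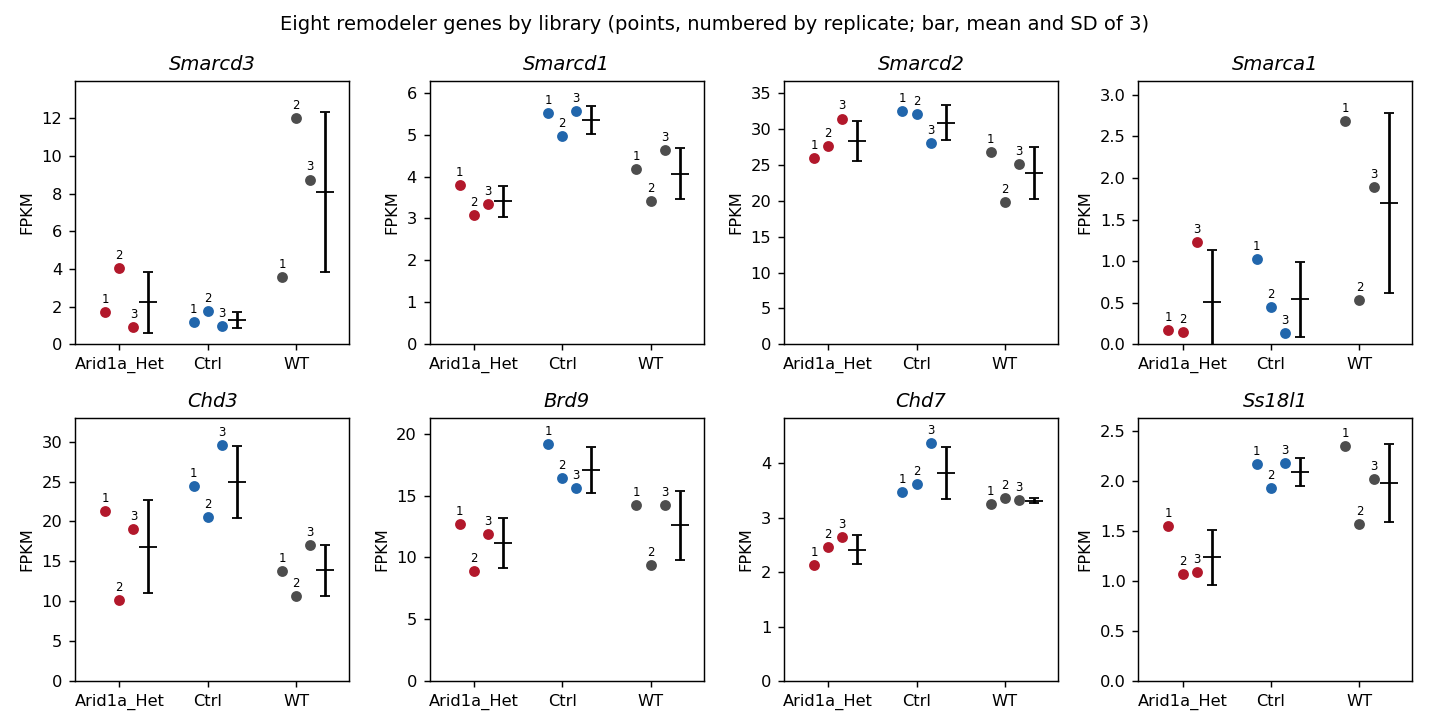
FPKM of 8 remodeler genes by group; points are libraries numbered by replicate, and the bar is the mean with SD of 3 libraries, ending at the axis where the SD exceeds the mean. Smarcd3 in Ctrl (0.947 to 1.75) lies below WT (3.57 to 12.0), and Chd7 and Ss18l1 in Arid1a_Het lie below both Ctrl and WT.

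Setting Arid1a_Het against Ctrl addresses the loxP-flanked copy of Arid1a. None of the 35 remodelers passed in either direction (0 higher and 0 lower), and limma called 0.00892% of all genes, a single small RNA, Mir7688. The alternative with limma voom on whole reads also called 0 remodelers. The fold change was negative for 33 of 35, 9 had an unadjusted p under 0.05 (25.7%, beside 11.6% of all genes), and the median log2 fold change was -0.39, against -0.16 over all genes. All Arid1a_Het libraries were below all Ctrl libraries for 18 genes (51.4%), beside 22.2% of all genes, and above for 0, beside 2.41%. After median-ratio scaling, which shifts the median of all genes to 0.03, the remodelers' median was -0.19 with 27 negative, and the groups were apart for 11 genes below (31.4%, beside 9.90% of all genes) and 0 above (beside 12.2%). Without Arid1a_Het 2 the median was -0.25, against -0.09 over all genes, and 30 of 35 were negative. The number at an unadjusted p under 0.05 was 3 without Arid1a_Het 2 (8.57%, beside 4.73% of all genes) and 16 without WT 2 (45.7%, beside 19.1%). It was 3 without Ctrl 1 (8.57%, beside 6.82%) and 4 without Arid1a_Het 3 (11.4%, beside 12.2%). Without both of these libraries, which hold pancreas reads, it was 1 (2.86%, beside 7.36%). The share of the remodelers was thus not above that of all genes in every one of these fits. The remodelers are long genes, with a median length of 7211 bases implied by the FPKM values, against 3813 bases over all genes tested. Among genes over 7000 bases the median log2 fold change was -0.44 for the 19 remodelers and -0.24 for all 2003 genes of that length. Among those at or under 7000 bases it was -0.34 for the 16 remodelers and -0.14 for all 9206. The part of length in the result was not tested.

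The 6 remodelers of lowest p in Arid1a_Het against Ctrl were Smarcd1, given above, and Chd7, Chd6, Brd9, Ss18l1 and Chd2, all lower in Arid1a_Het without passing the adjusted threshold. Brd9 (chr13:73937811-73960895, plus strand), the bromodomain subunit of the non-canonical complex that holds no Arid1a, had 12.7, 8.87 and 11.9 FPKM in Arid1a_Het against 19.2, 16.4 and 15.6 FPKM in Ctrl and 14.2, 9.36 and 14.2 FPKM in WT. Arid1a_Het lay below Ctrl and overlapped WT, with a log2 fold change of -0.58 against Ctrl (SE 0.20, adjusted p 0.397). Ctrl lay above WT for Brd9, with a log2 fold change of 0.43 (SE 0.20, adjusted p 0.168), which was 0.18 after median-ratio scaling and 0.25 without WT 2.

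Chd7 (chr4:8690406-8867659, plus strand), the remodeler mutated in human CHARGE syndrome, had 2.14, 2.46 and 2.65 FPKM in Arid1a_Het against 3.47, 3.62 and 4.37 FPKM in Ctrl and 3.26, 3.36 and 3.33 FPKM in WT. Arid1a_Het lay below both other groups, in the values as deposited and after median-ratio scaling. The log2 fold change of Chd7 was -0.49 against Ctrl (SE 0.15, adjusted p 0.386) and -0.34 against WT (SE 0.15, adjusted p 0.277). Chd6, its close relative, had 2.6, 1.80 and 1.62 FPKM in Arid1a_Het, 3.94, 3.82 and 3.19 FPKM in Ctrl and 3.27, 1.92 and 3.29 FPKM in WT, with a log2 fold change of -0.64 against Ctrl (SE 0.21, adjusted p 0.397) and -0.34 against WT (SE 0.21, adjusted p 0.464). Arid1a_Het was apart from Ctrl but not from WT, where WT 2 was low. Chd2 had 4.04, 2.09 and 2.53 FPKM in Arid1a_Het, 5.36, 5.43 and 4.88 FPKM in Ctrl and 5.22, 2.47 and 5.22 FPKM in WT. Its log2 fold changes were -0.71 against Ctrl (SE 0.26, adjusted p 0.403) and -0.43 against WT (SE 0.26, adjusted p 0.470), with the same low WT 2.

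Ss18l1 (chr2:180042509-180070201, plus strand), a calcium-responsive paralogue of the ATPase-arm subunit Ss18, had 1.55, 1.07 and 1.09 FPKM in Arid1a_Het, 2.17, 1.93 and 2.18 FPKM in Ctrl and 2.35, 1.57 and 2.02 FPKM in WT. Arid1a_Het lay below both other groups. The log2 fold change was -0.47 against Ctrl (SE 0.17, adjusted p 0.397) and -0.41 against WT (SE 0.17, adjusted p 0.246). Ss18 itself had 13.0, 6.61 and 10.7 FPKM in Arid1a_Het, 14.8, 12.6 and 15.4 FPKM in Ctrl and 10.7, 5.74 and 11.7 FPKM in WT. Ctrl lay above WT for Ss18 in the values as deposited but not after median-ratio scaling. Ss18l1 ran at 0.119, 0.162 and 0.102 of the Ss18 level in the Arid1a_Het libraries, 0.147, 0.153 and 0.142 in the Ctrl libraries and 0.221, 0.274 and 0.173 in the WT libraries, so that both NICD groups lay below WT.

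**Figure D4:**
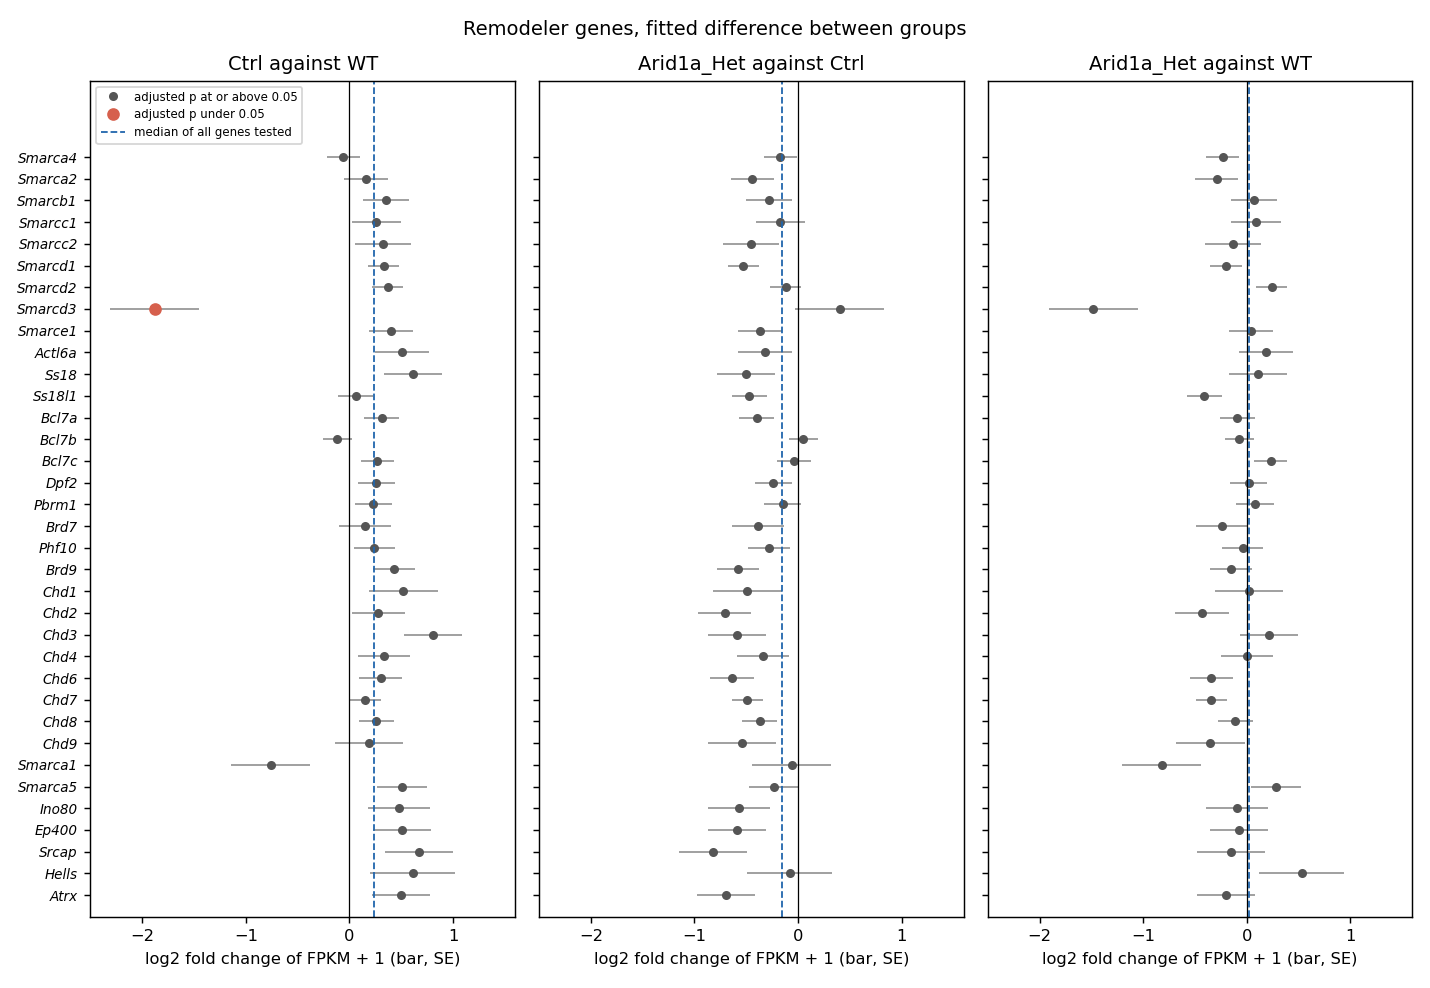
Fitted log2 fold change of FPKM + 1 with its SE for each of the 35 tested genes, ordered by role, in the 3 comparisons; the dashed line is the median of all genes tested (0.24, -0.16 and 0.02 from left to right). Smarcd3 in Ctrl against WT is the 1 point that passed, and in Arid1a_Het against Ctrl 33 of 35 points lie left of 0.

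Setting Arid1a_Het against WT addresses all alleles together. None of the 35 passed in either direction (0 higher and 0 lower), where 2.75% of all genes did, limma voom called 0 as well, and 3 had an unadjusted p under 0.05, beside 17.2% of all genes. The median log2 fold change of the remodelers was -0.09, against 0.02 over all genes, and its sign rests on single libraries. It was -0.29 without WT 2, against -0.09 over all genes, with 30 of 35 negative. It was 0.03 without WT 1 (0.09 over all genes) and 0.02 without WT 3 (0.09 over all genes). Leaving out Arid1a_Het 2 gave 0.01 (0.11 over all genes) and leaving out Arid1a_Het 1 gave -0.20 (-0.02 over all genes). The remodelers' median was thus below that of all genes in each of these fits. Without WT 2, 10 had an unadjusted p under 0.05 (28.6%, beside 18.1% of all genes). That count was 1 without WT 1 (2.86%, beside 16.9%) and 1 without WT 3 (2.86%, beside 13.5%). It was 2 without Arid1a_Het 2 (5.71%, beside 20.7%) and 3 without Arid1a_Het 1 (8.57%, beside 15.1%). Arid1a_Het lay wholly below WT for 2 genes, Chd7 and Ss18l1, beside 8.57% of all genes, and wholly above for 1, Bcl7c, beside 10.6%. After scaling 6 lay below (Chd7, Chd8, Smarca2, Smarca4, Smarcd1 and Ss18l1) and Bcl7c above, beside 9.56% and 13.1% of all genes. Bcl7c, a small ATPase-arm subunit, had 1.31, 1.29 and 1.53 FPKM in Arid1a_Het, 1.44, 1.78 and 1.16 FPKM in Ctrl and 1.05, 0.894 and 1.16 FPKM in WT. The 3 comparisons share libraries, so these counts are not independent of each other.

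Among the SWI/SNF ATPases, Smarca4 had 47.4, 40.5 and 41.4 FPKM in Arid1a_Het, 49.4, 48.2 and 47.8 FPKM in Ctrl and 57.7, 39.5 and 56.6 FPKM in WT. As deposited, Arid1a_Het lay just below Ctrl and WT spanned both. After median-ratio scaling Arid1a_Het (39.9 to 47.3) and Ctrl (42.2 to 44.1) overlapped, and both lay below WT (51.2 to 55.8). Smarca2 had 2.93, 2.32 and 2.5 FPKM in Arid1a_Het, 4.69, 4.26 and 2.85 FPKM in Ctrl and 3.91, 2.49 and 3.87 FPKM in WT, overlapping between all groups. The ratio of Smarca2 to Smarca4 was 0.0619, 0.0572 and 0.0604 in the Arid1a_Het libraries, 0.0948, 0.0884 and 0.0596 in the Ctrl libraries and 0.0677, 0.0631 and 0.0684 in the WT libraries, where Arid1a_Het was below WT by a narrow gap and Ctrl 3 stood apart from the other Ctrl libraries. Smarca4 RNA was thus more than 10 times that of Smarca2, per length, in every library.

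Of the other core and ATPase-arm subunits, the values as deposited overlapped between Arid1a_Het and WT for each but Bcl7c and Ss18l1. Smarcb1 (3.70 to 7.71 FPKM over all libraries), Smarcc1 (7.37 to 14.7 FPKM), Smarcc2 and Smarce1 (2.95 to 6.17 FPKM) had their lowest value in WT 2, and so did Actl6a. Smarce1 and Smarca5 have processed pseudogenes, of which Smarca5-ps had 0 to 0.15 FPKM, so their counts could be split between copies. Bcl7b, the most abundant Bcl7 gene, stood at 9.93 to 10.6 FPKM in Arid1a_Het, 8.51 to 11.2 FPKM in Ctrl and 10.3 to 11.1 FPKM in WT, and did not share the low values of Arid1a_Het 2 and WT 2. Bcl7a had 1.94, 1.26 and 1.59 FPKM in Arid1a_Het, 2.26, 2.45 and 2.51 FPKM in Ctrl and 1.77, 1.42 and 2.09 FPKM in WT, and its ratio to Bcl7b was highest in Ctrl (0.219 to 0.295), apart from both Arid1a_Het (0.126 to 0.196) and WT (0.128 to 0.193). Of the form-specific subunits, Dpf2 ranged over all libraries from 5.04 to 8.70 FPKM, Pbrm1 from 9.95 to 16.9 FPKM and Brd7 from 5.78 to 11.8 FPKM. Phf10 averaged 7.81 ± 1.59 FPKM in Arid1a_Het, 9.60 ± 0.472 FPKM in Ctrl and 8.08 ± 1.83 FPKM in WT (SD, n = 3 each). For Brd7 and Dpf2 the Arid1a_Het libraries lay below Ctrl as deposited and not after scaling.

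**Figure D5:**
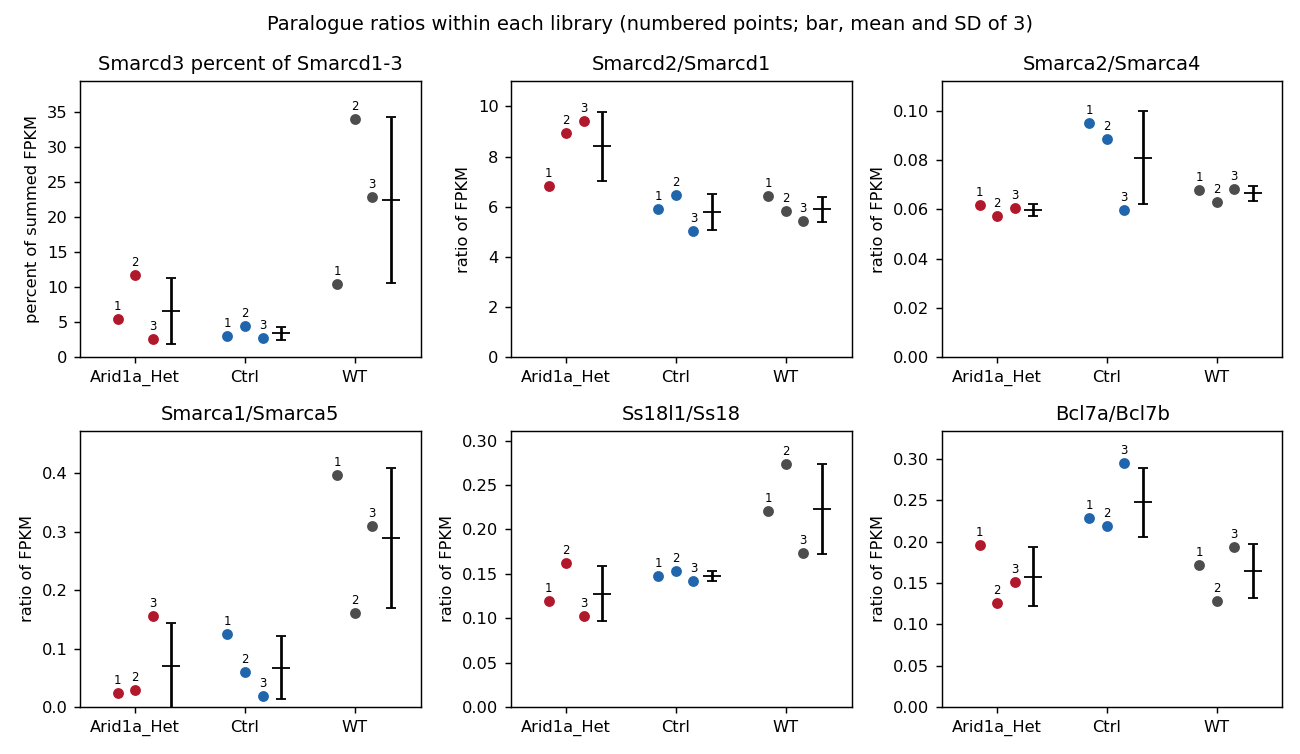
Paralogue ratios of FPKM within each library by group, and the percent of the summed Smarcd FPKM that Smarcd3 made up; points are libraries numbered by replicate, and the bar is the mean with SD of 3 libraries, ending at the axis where the SD exceeds the mean. Smarcd2/Smarcd1 is highest in Arid1a_Het (6.84 to 9.42), and Smarcd3, Smarca1 and Ss18l1 take their highest shares in WT.

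Of the CHD ATPases, Chd3 (chr11:69343273-69369406, minus strand) showed the largest fold change of the 8 between Ctrl and WT, with 21.3, 10.2 and 19.0 FPKM in Arid1a_Het, 24.5, 20.6 and 29.6 FPKM in Ctrl and 13.8, 10.7 and 17.1 FPKM in WT. Ctrl lay above WT, also after median-ratio scaling. The log2 fold change for Ctrl against WT was 0.81 (SE 0.28, adjusted p 0.0896). With the replicate number as a block, Chd3 (adjusted p 0.0156) and Ss18 (log2 fold change 0.61, adjusted p 0.0430) passed. Without Arid1a_Het 2 in the fit, Chd3 also passed (adjusted p 0.0335). Chd4, the more abundant NuRD ATPase, had 47.0, 31.6 and 42.1 FPKM in Arid1a_Het, 56.5, 51.9 and 44.0 FPKM in Ctrl and 54.6, 27.9 and 41.6 FPKM in WT, overlapping between all groups. Chd1 (3.04 to 9.32 FPKM over all libraries), Chd8 (5.06 to 8.38 FPKM) and Chd9 (2.16 to 7.03 FPKM) were lower on average in Arid1a_Het than in Ctrl without passing the test. All 8 CHD genes had negative fold changes in that comparison, from -0.71 to -0.34.

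Smarca1 and Smarca5 are the ISWI pair. Smarca1 (chrX:47809368-47892974, minus strand), known as the ISWI ATPase of differentiated neurons in the mouse, had 0.165, 0.144 and 1.23 FPKM in Arid1a_Het, 1.03, 0.449 and 0.139 FPKM in Ctrl and 2.68, 0.534 and 1.89 FPKM in WT, from 23 to 381 reads. The groups overlapped, with WT 1, WT 3, Arid1a_Het 3 and Ctrl 1 at 1.03 FPKM or more and the other libraries at 0.534 FPKM or less. The log2 fold change of Arid1a_Het against WT was -0.82 (SE 0.38, adjusted p 0.322). Insm1, a factor of endocrine cells, had 0.113, 0.0798 and 1.34 FPKM in Arid1a_Het, 0.925, 0.317 and 0.0239 FPKM in Ctrl and 3.0, 0.576 and 1.53 FPKM in WT, and ordered all 9 libraries exactly as Smarca1 did. It was picked after its values were seen, from 9 enteroendocrine and neural-like markers that were detected in every library. Their sum was 49.6, 155 and 166 FPKM in Arid1a_Het, 121, 116 and 57.2 FPKM in Ctrl and 646, 519.5 and 520.2 FPKM in WT, and it did not follow the order of Smarca1. The islet genes Ins1 and Ins2 did not exceed 0.163 FPKM in any library. Both were highest in Ctrl 1 (0.130 FPKM for Ins1 and 0.163 FPKM for Ins2) and at 0 in Arid1a_Het 3, the 2 libraries with pancreas markers. The part of endocrine cells or of pancreas in the values of Smarca1 was not tested.

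Smarca5 had 6.85, 5.03 and 7.91 FPKM in Arid1a_Het, 8.23, 7.59 and 7.66 FPKM in Ctrl and 6.73, 3.33 and 6.08 FPKM in WT. Ctrl lay above WT, also after scaling, with a log2 fold change of 0.51 (SE 0.24, adjusted p 0.169), which was 0.29 after scaling and 0.25 without WT 2. The ratio of Smarca1 to Smarca5 was 0.0242, 0.0287 and 0.155 in Arid1a_Het and 0.125, 0.0591 and 0.0181 in Ctrl, all below the 0.398, 0.161 and 0.310 of WT.

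Ino80, Srcap and Ep400, the ATPases of histone variant exchange, were among the genes in which the Ctrl libraries stood high. Srcap had 8.52, 4.46 and 5.97 FPKM in Arid1a_Het, 12.2, 9.71 and 13.1 FPKM in Ctrl and 9.80, 3.62 and 9.0 FPKM in WT. Ep400 had 5.77, 4.06 and 4.33 FPKM in Arid1a_Het, 8.50, 6.92 and 7.26 FPKM in Ctrl and 7.27, 2.73 and 5.91 FPKM in WT. For both, Arid1a_Het lay below Ctrl, also after scaling, and none of their adjusted p-values passed. Ino80 ranged from 2.83 to 7.64 FPKM over all libraries and overlapped between groups.

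Atrx, which deposits histone H3.3 with Daxx, had 5.64, 2.80 and 4.06 FPKM in Arid1a_Het, 7.5, 6.99 and 7.03 FPKM in Ctrl and 6.29, 2.85 and 5.94 FPKM in WT, so that Ctrl was apart from both other groups, also after scaling. Hells, a remodeler of dividing cells needed for DNA methylation, had 4.93, 2.38 and 6.75 FPKM in Arid1a_Het, 4.75, 5.16 and 4.19 FPKM in Ctrl and 4.05, 0.917 and 4.33 FPKM in WT, overlapping between all groups. Proliferation markers, 15 genes, summed to 232, 132 and 271 FPKM in Arid1a_Het, 277, 263 and 256 FPKM in Ctrl and 239, 58.5 and 176 FPKM in WT. WT 2 and Arid1a_Het 2 were the lowest libraries for this sum and for Hells alike, and the part of proliferation in the values of Hells was not tested.

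Partners of these ATPases outside the 37 genes were read from lists of the same complexes. Of 6 tested SWI/SNF partners, 12 NuRD partners, 26 partners of the INO80, SRCAP and TIP60 complexes, 10 other SNF2-family ATPases and 7 partners of Hells and Atrx, 0 passed in any comparison by limma, where 10.1% of all genes did in Ctrl against WT, 0.00892% in Arid1a_Het against Ctrl and 2.75% in Arid1a_Het against WT. The highest count at an unadjusted p under 0.05 in a list was 9 of the 26 in Ctrl against WT, beside 32.1% of all genes. Larger shares relative to all genes occurred elsewhere. In Arid1a_Het against WT it was 3 of the 6 SWI/SNF partners, Arid1a among them, beside 17.2%. In Arid1a_Het against Ctrl, beside 11.6%, it was 6 of the 26, 2 of the 6 SWI/SNF partners, again with Arid1a, and 2 of 8 ISWI partners. There it was also 2 of the 10 SNF2-family ATPases, 1 of the 12 NuRD partners and 1 of the 7 partners of Hells and Atrx. Of 8 ISWI partners 1 passed, a share near the 10.1% of all genes. It was Baz1a, the large subunit of the ACF complex, which rose in Ctrl, with 12.1, 10.5 and 16.0 FPKM against 7.42, 5.34 and 5.86 FPKM in WT (log2 fold change 0.94, SE 0.24, adjusted p 0.0387). That call held in 11 of 22 alternatives, with an adjusted p of 0.0578 after median-ratio scaling and up to 0.138 without Ctrl 3. The NuRD histone-binding subunit Rbbp7 came next, with 74.7, 79.4 and 65.8 FPKM in Ctrl against 50.6, 33.4 and 45.7 FPKM in WT (log2 fold change 0.76, SE 0.23, adjusted p 0.0615), and then the AAA ATPase Ruvbl1, with 5.81, 6.19 and 7.19 FPKM in Ctrl against 3.97, 2.0 and 3.67 FPKM in WT (log2 fold change 0.84, SE 0.25, adjusted p 0.0648). In Arid1a_Het against Ctrl the median log2 fold change of the NuRD partners was -0.14, near the -0.16 of all genes, while the medians of the other 5 partner lists ran from -0.51 to -0.32. The SWI/SNF list, with a median of -0.39, includes Arid1a, the targeted gene itself. Arid2, the PBAF counterpart of Arid1a, had 4.75, 3.96 and 5.30 FPKM in Arid1a_Het, 6.53, 6.14 and 6.74 FPKM in Ctrl and 5.22, 4.21 and 5.20 FPKM in WT, with a log2 fold change of -0.40 for Arid1a_Het against Ctrl (SE 0.15, adjusted p 0.404).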

How the data were processed

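The deposited table gives FPKM per gene and library, computed by the authors. The submitters' processing notes name STAR 2.4.2a, an aligner, and the builds GRCm38 and mm10. The counting tool, its handling of strand and of reads with several matches are not given in the sources used here. All 18423 genes gave whole reads in every library (tolerance 0.01 reads), which served for depth and for an alternative with limma voom.

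Tests used limma 3.58.1 in R 4.3.3 (lmFit, eBayes with a trend) on log2(FPKM + 1), with all 9 libraries and 3 group means in 1 fit of the 11209 genes that had at least 1 FPKM in at least 3 libraries, and a Benjamini-Hochberg adjusted p under 0.05. Fold changes on this scale understate those of low genes. The members, lists and rules were chosen with earlier results of these data known. Each gene called, and the 6 of lowest p in each comparison, are given with their statistics; Insm1, Mir7688, Ins1 and Ins2 were named after their values were seen. Same-numbered Ctrl and WT libraries deviated from their group means together (correlations 0.207, 0.336 and 0.138). The fit described above had no block, and the numbers were taken as pairs only in the alternatives with a replicate block, on the data alone. That block covered all 9 libraries, Arid1a_Het included. Arid1a_Het 3 carries a sample number far from those of the rest, and an effect of separate handling was not tested. Upstream windows are from RefSeq (30 of 37 genes matched) and gene positions from GENCODE M21. Of the partner lists, Bicra and Bicral were not analysed here. Python 3.11.15 with pandas 2.3.3, numpy 2.4.6 and matplotlib 3.10.9 made the other values and plots.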

Additional observations from a re-analysis of the deposited data

How the results depend on the processing

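The 22 alternatives were another pseudocount, filters, scalings, fits and libraries left out, 3 of them (no libraries with most Pgc reads, a total without the 50 highest genes, and median-ratio scaling with the block) added after seeing the data. No fold change of a named remodeler that had passed changed direction. For Ctrl against WT the number of higher remodelers was 0, but 1 (Chd3) with only the 2 groups in the fit, 2 (Chd3 and Ss18) with the replicate block, and 0 to 1 with each library left out. The number of lower remodelers was 1, but 0 with no filter, 0 with a minimum FPKM of 5, which leaves Smarcd3 untested, 0 without the pancreas libraries, 2 (Smarcd3 and Bcl7b) under median-ratio scaling with the replicate block, and 0 to 1 with each library left out. For Arid1a_Het against WT it was 0, but 1 (Smarcd3, adjusted p 0.0344) with the replicate block, and 0 to 1 with each library left out. The counts for Arid1a_Het against Ctrl stayed at 0 in every alternative run. Smarcd3 passed in Ctrl against WT in 14 of the 21 alternatives that tested it, with log2 fold changes of -2.52 to -1.56. For Arid1a_Het, same-numbered libraries did not deviate together in all pairs, with correlations of -0.151, 0.467 and -0.0202 with Ctrl and 0.252, 0.5625 and -0.279 with WT, so they share only a number. The fits with the replicate block used that number all the same, so passes in those fits rest on a pairing that no label states. Dpf1 and Dpf3 were left untested by the filter on low values and did not pass in the alternative with no filter. The cause of the changed counts was not tested.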
